A study of Arabidopsis thaliana with 12 samples.

Results

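*CLSY1* (AT3G42670), *CLSY2* (AT5G20420), *CLSY3* (AT1G05490), *CLSY4* (AT3G24340), *SHH1* (AT1G15215) and *SHH2* (AT3G18380) were picked by locus identifier, and all 6 were listed among the 16755 genes of the RNA-seq table. Seedling RNA was measured in *ago4* (the *ago4-1* allele introgressed into Col-0, 3 samples), and chromosomal contacts were measured by Hi-C in seedlings of Col-0 (wild type), *nrpe1* and *ago4* (3 samples each). Plants were grown in long days for 2 to 3 weeks, and the labels give formaldehyde crosslinking. *ago4* lacks a normal AGO4, the argonaute that carries siRNAs to their targets, and *nrpe1* lacks the largest subunit of RNA polymerase V. Each mutant is represented by 1 allele, *nrpd1b-11* for *nrpe1*. Hi-C used tissue above ground. The Hi-C data used here are 6 lists of differentially methylated regions (DMRs) of *nrpe1*, which name the DMRs with contacts in each library of the *ago4* and *nrpe1* mutants. Lists of Col-0 were not used here. The RNA-seq table comes from a comparison of *ago4* with Col-0, and its level is 1 mean per gene over the libraries compared, mutant and wild type together, with no value of a single library. The levels below are therefore not those of *ago4* alone. Neither the depth nor the spread between RNA samples is known, and how these 6 genes respond to loss of AGO4 was not analysed here.

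RNA-directed DNA methylation (RdDM) begins when RNA polymerase IV (Pol IV) transcribes its targets into short RNAs, which RDR2 makes double-stranded and DCL3 cuts into siRNAs. Pol IV needs partners to find these targets. The CLASSY (CLSY) proteins are putative SNF2-type chromatin remodelers that associate with Pol IV and determine at which loci siRNAs are made. CLSY1 and CLSY2 work together with SHH1, whose SAWADEE domain binds histone H3 that is methylated at lysine 9, whereas CLSY3 and CLSY4 act at loci where CG methylation is needed. CLSY3 is known for its part in siRNA production in reproductive tissues of *Arabidopsis*. SHH2 is the homologue of SHH1 with the same type of domain.

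*CLSY1* and *CLSY2* form a closely related pair, which matters for how their RNA-seq reads could be assigned. Their longest coding sequences were 78.9% identical over an alignment that covered 98.7% of the shorter sequence. *CLSY3* and *CLSY4* were 63.8% identical over 49.7% of the shorter sequence, and *SHH1* and *SHH2* 64.5% over 37.6%. Alignments between the *CLSY1* or *CLSY2* and the *CLSY3* or *CLSY4* coding sequences covered 6.85% to 12.3%. The longest exact run shared by the exons of *CLSY1* and *CLSY2* was 35 bp, in coding exon sequence of exon 4 of each. It is shown with 10 bp on either side, 5′ to 3′ on the coding (minus) strand of TAIR10.1, with the shared run in capitals. The *CLSY1* stretch is chr3:14758181-14758235 and the *CLSY2* stretch is chr5:6901274-6901328.
CLSY1: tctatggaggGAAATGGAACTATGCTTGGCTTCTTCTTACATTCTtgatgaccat
CLSY2: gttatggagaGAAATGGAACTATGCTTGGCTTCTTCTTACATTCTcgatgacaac
In this stretch 49 of 55 bases were identical. Every window of 50 bp within the exons of the 6 genes occurred at a single place on the nuclear chromosomes (100%, from 770 windows in *SHH1* to 4539 in *CLSY3*). Reads of at least that length that lie within a single exon and match exactly can therefore be placed uniquely on these chromosomes. Reads across exon junctions are not covered by these windows, and the read length is not given in the sources used here. *SHH1* was the only one of the 6 that overlapped another annotated gene, sharing 23 bp of exon (1.90% of its exons) with *CCMH* (AT1G15220) on the opposite strand. Whether reads were counted by strand is not given in the sources used here, so reads of these 23 bp cannot be told apart.

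The 6 genes spanned a wide range of RNA levels. *CLSY1* was the most abundant, with an authors' mean log2 CPM (read counts scaled to the library total) of 3.50, above 63.9% of the genes listed. In seedling tissue, fewer cells that express a gene and less RNA per cell cannot be told apart. *SHH1* had a mean log2 CPM of 1.94 and *SHH2* of 1.83, above 29.7% and 27.5% of genes. *CLSY4* had a mean log2 CPM of 1.16, above 16.2%. *CLSY2* and *CLSY3* were at the bottom of the table, at mean log2 CPM values of 0.02 and -0.04. Only 172 genes of the table had a lower value than *CLSY2* and 99 a lower value than *CLSY3*, and the lowest value of any gene was -0.73. These positions depend on the genes counted. Among protein-coding genes alone *CLSY2* was above 0.67% and *CLSY3* above 0.37%, against 1.03% and 0.59% of all listed genes, and among genes with a log2 CPM of at least 0 *CLSY2* was above 0.17%. Values below 0 were listed for 144 of 16755 genes. The table holds 16151 of 27444 annotated nuclear protein-coding genes, and genes that are not listed have no value here, so these positions are among listed genes.

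**Figure D1:**
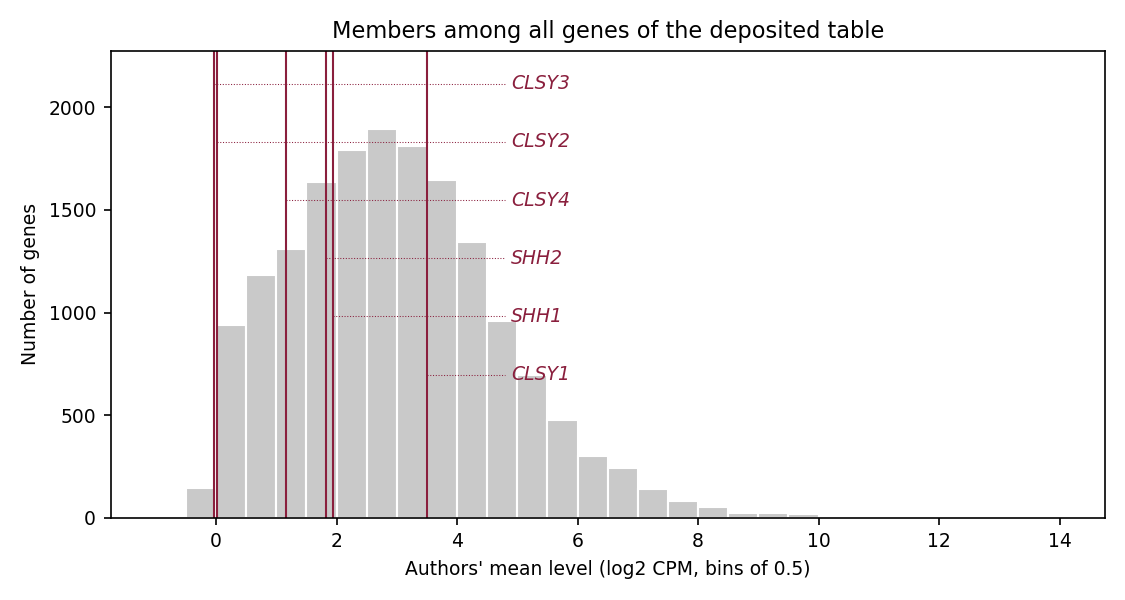
Number of genes (y axis) by authors' mean log2 CPM (x axis, bins of 0.5) for the 16755 genes of the RNA-seq table, with a vertical line at the level of each of the 6 genes. *CLSY2* and *CLSY3* lie at the left edge, *CLSY1* right of the median of 2.87.

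These levels rise with transcript length, and the exons of the CLSY genes add up to 3656 to 4735 bp against 1208 bp in *SHH1* and 1565 bp in *SHH2*. Per kb of exon, on the scale of log2 CPM minus log2 kb, *SHH1* came first with a level of 1.66, followed by *CLSY1* with 1.45 and *SHH2* with 1.18. *CLSY4* followed with a level per kb of -0.71, *CLSY2* with -2.05 and *CLSY3* with -2.28. The top 3 levels per kb lay within 0.48 of each other on the log2 scale. The level of *CLSY1* was 4.46-fold that of *CLSY4*, 11.3-fold that of *CLSY2* and 13.3-fold that of *CLSY3* per kb. The ratios to *CLSY2* and *CLSY3* rest on mean log2 CPM values of 0.02 and -0.04, among the lowest listed, and are therefore rough. With the longest coding sequence as the length, *CLSY1* (1.58) ranked below *SHH2* (1.76), so the order of these 2 genes depends on the length used. All 6 were below the median level per kb of all genes (1.93), *SHH1* and *CLSY1* exceeding 44.0% and 39.0% of genes, and *CLSY3* 0.52%. No spread over samples is available for these means, so whether neighbours in this order differ was not tested.

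The other genes of the pathway give a scale for these values. Of 27 genes in 4 lists, 25 were in the table, and *AGO6* and *AGO9*, relatives of *AGO4*, were not listed. The 25 had a median level per kb of 1.23, against 0.24 for the 6 CLSY and SHH genes. *CLSY2* and *CLSY3* were below all 25, of which *SUVH5*, a histone H3K9 methyltransferase, was lowest at a level per kb of -1.19. *CLSY4* was above 2 of the 25, *SHH2* above 12, *CLSY1* above 15 and *SHH1* above 16. Among the direct partners in siRNA production, *NRPD1* (the largest subunit of Pol IV) had a level per kb of -0.78, *RDR2* of -0.66 and *DCL3* of -0.57, each near *CLSY4*. The genes of 2 other subunits of Pol IV, *NRPD2* and *NRPD4*, had higher levels per kb of 1.36 and 2.93. *DRD1*, a SNF2 protein that acts with Pol V, had a level per kb of 0.30, above that of 3 of the 4 CLSY genes and below *CLSY1*.

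**Figure D2:**
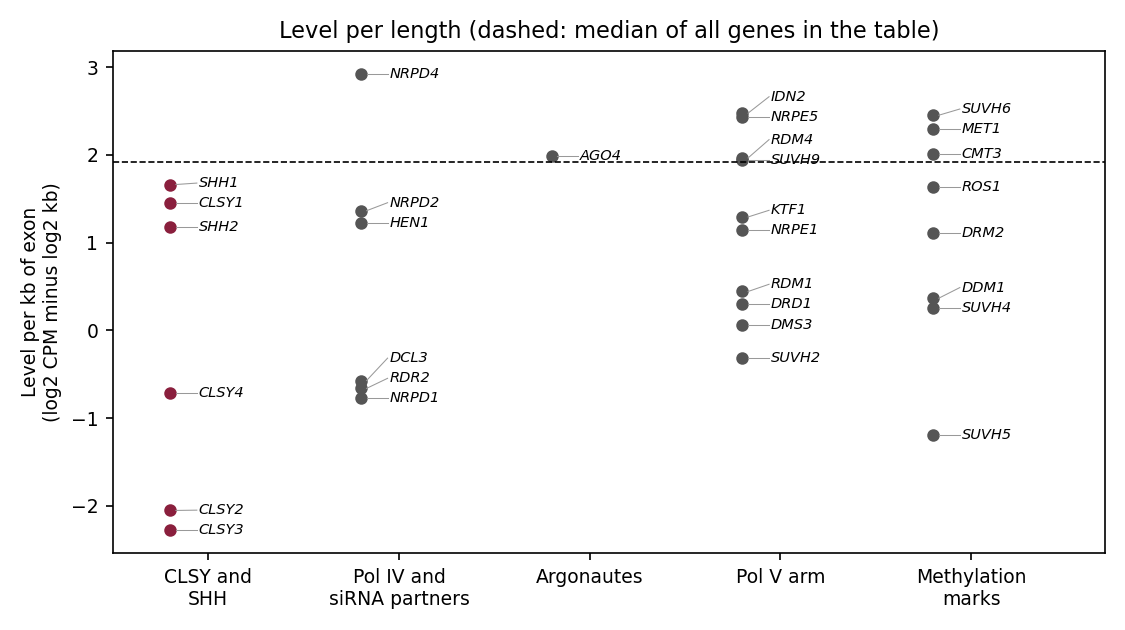
Level per kb of exon (log2 CPM minus log2 kb, authors' mean) of the CLSY and SHH genes (red points) and of 25 other RdDM pathway genes in 4 lists (grey points), with the median of all genes as a dashed line at 1.93. *CLSY2* and *CLSY3* lie below every other gene shown.

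By level per kb, the genes most like *CLSY1* were AT4G23895, *TAFII21* and AT5G15270, which differed from it by at most 0.00024 on the log2 scale. Those most like *SHH1* were *ZTL*, AT1G15790 and AT4G15475, and those most like *SHH2* were *SSP4*, *RANGAP2* and AT5G36925. *CLSY4* was closest to *CNGC9*, the pseudogene AT4G21420 and *CYP84A4*. For *CLSY2*, the 3 closest genes were all annotated as pseudogenes (AT3G33154, AT4G06566 and AT1G40113). For *CLSY3*, 2 of the 3 were (AT3G32195 and AT3G33115, beside AT4G08990). Of the 16604 nuclear genes matched to the annotation, 16151 were protein-coding. *CLSY2* and *CLSY3* exceeded only 0.70% and 0.52% of genes by level per kb. The share of pseudogenes among genes this low is not given here, so their pseudogene neighbours are no result about *CLSY2* and *CLSY3*. The likeness rests on 1 mean value per gene.

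The labelled tissue was checked against marker genes. All 4 leaf markers were in the table with log2 CPM between 9.38 (*RCA*, Rubisco activase) and 10.64 (*RBCS1A*, a small subunit of Rubisco). None of the 5 markers of root hairs, seeds or pollen was listed, *COBL9*, *EXPA7*, *CRA1*, *SESA1* and *VGD1*. Genes took up 39.3% of the summed CPM of the table and reads without a unique alignment 57.4%. A total of genes alone would raise every log2 CPM by 1.34 and leave the order as it is.

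The 6 genes lie on 3 chromosomes in TAIR10.1. *CLSY1* occupies chr3:14755798-14760629 on the minus strand, with 6 exons in its longest transcript, the one counted here for each gene. Its surroundings differed from those of the others, with 24 protein-coding genes within 250 kb, and 0.84% of genes had fewer. It had 103 pseudogenes in the same window, against a median of 5. The other 5 genes had 123 to 152 protein-coding genes (median of all genes, 138) and 2 to 9 pseudogenes within 250 kb. *CLSY2* (chr5:6898790-6904242, 6 exons), *CLSY3* (chr1:1618504-1623489, 4 exons), *CLSY4* (chr3:8831935-8835829, 3 exons) and *SHH2* (chr3:6310712-6313406, 9 exons) are on the minus strand. *SHH1* (chr1:5238044-5240051, 9 exons) is on the plus strand. *CLSY1* begins 77763 bp from the next protein-coding gene on its upstream side, AT3G42723, and ends 97 bp from AT3G42660.

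The Hi-C lists were then used to ask how near DMRs with contacts lie to these genes. Only the positions of DMRs were taken from them, not the partners of their contacts. A DMR near a gene is therefore not shown to contact that gene. Of the 6 genes, only *CLSY3* had a listed DMR within 10 kb in any list. Among the 16604 nuclear genes of the table, 7.46% had one, so 1 of 6 is read against that share. The DMR lies 574 bp beyond the 3′ end of *CLSY3*, outside annotated genes, at chr1:1617661-1617930. It was present in the list of *nrpe1* replicate 2 and in none of the other 5. No listed DMR lay within 10 kb upstream of the start of any of the 6 genes.

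The sequence of this DMR is shown because it is the only one beside a CLSY or SHH gene, together with the DMR nearest to *CLSY4* (chr3:8903457-8903667). Both are on the plus strand of TAIR10.1, with GATC, the site cut by the enzyme *Dpn*II of the Hi-C protocol, in capitals. Whether listed starts are counted from 0 or from 1 is not stated, and the first base shown may be off by 1.
CLSY3 DMR: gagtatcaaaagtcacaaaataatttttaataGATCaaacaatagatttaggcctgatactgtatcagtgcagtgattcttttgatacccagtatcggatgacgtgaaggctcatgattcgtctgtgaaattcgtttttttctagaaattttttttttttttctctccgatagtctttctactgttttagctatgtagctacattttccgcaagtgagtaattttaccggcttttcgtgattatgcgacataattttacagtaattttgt
CLSY4 DMR: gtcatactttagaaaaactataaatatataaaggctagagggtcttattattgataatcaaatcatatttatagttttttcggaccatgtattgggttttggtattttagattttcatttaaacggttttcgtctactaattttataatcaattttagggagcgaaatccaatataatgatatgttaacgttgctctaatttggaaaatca
The *CLSY3* DMR holds 1 GATC and the *CLSY4* DMR none. GATC, which reads the same on both strands, was found in 64.1% of the 541 different DMRs, whose median length was 408 bp. It was found in 58.8% of genome windows of the length of the *CLSY3* DMR (270 bp) and in 50.4% of windows of the length of the *CLSY4* DMR (211 bp). In windows of 352 bp it was 68.0%. The share rises with length, so that of the DMRs cannot be set directly against those of the shorter windows. Cytosines followed by a G (CG) numbered 18 on both strands of the *CLSY3* DMR and 10 in that of *CLSY4*. Cytosines in the CHH context (H is any base but G), in which RdDM is the main source of methylation on chromosome arms, numbered 48 and 42. Per 100 bp the *CLSY3* DMR had 17.8 CHH cytosines, fewer than most listed DMRs, of which 10.4% had a lower density and the median was 22.5. The *CLSY4* DMR had 19.9 per 100 bp.

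At 250 kb, 1 of the 6 genes (*CLSY2*) had a DMR of any *ago4* list near it, against 61.1% of all genes. In the *nrpe1* lists it was 2 of 6 (*CLSY3* and *CLSY4*), against 42.7%. Within 1000 kb of the 6 genes there were 31 different DMRs, of which 17 were only in *ago4* lists, 12 only in *nrpe1* lists and 2 in both. Of the 31, 16 were in a single list and 24 lay outside annotated genes. They were spread unevenly, with 12 around *CLSY4*, 6 around *CLSY2*, 5 each around *CLSY1* and *SHH1*, 2 around *CLSY3* and 1 around *SHH2*. The *ago4* lists hold 207 to 265 DMRs and the *nrpe1* lists 50 to 176. The same shares over all 541 different DMRs, and the usual number of DMRs around a gene, are not given here. These counts are therefore no result about the 6 genes.

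**Figure D3:**
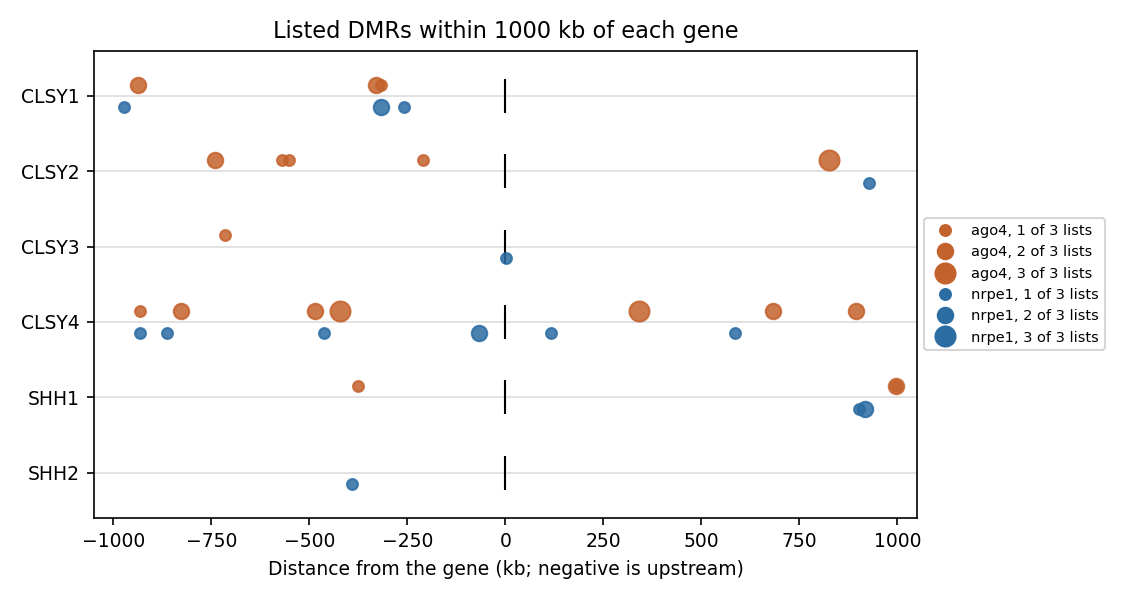
Listed DMRs within 1000 kb of each gene, by distance from the gene in kb (x axis, negative values upstream), for *ago4* (orange) and *nrpe1* (blue), with larger points for DMRs in more of the 3 lists. Around *CLSY4* the *nrpe1* points lie closest to the gene, and the nearest *ago4* points, at 339.7 kb downstream and 421585 bp upstream, are in all 3 lists.

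For *CLSY4* and *CLSY2* the distances of the genotypes did not overlap, in opposite directions. The nearest DMR of *CLSY4* was 67.6 kb away in *nrpe1* replicates 1 and 2 and 117 kb away in replicate 3. In all 3 *ago4* lists it was 339.7 kb away, at the same DMR (chr3:8492036-8492275). The 2 groups did not overlap, and the *ago4* distance was 4.19 times the geometric mean of *nrpe1* (81.1 kb). All 3 *nrpe1* lists were nearer than all 3 *ago4* lists for 1.01% of all genes, and for 1 of these 6. In an exact permutation test of 3 lists against 3 (two-sided, log2 distance) the raw p was 0.1, the smallest this design allows, and 0.3 after Benjamini-Hochberg adjustment over the 6 genes tested.

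The DMRs behind these values were few. The *nrpe1* distances rest on 2 DMRs, the one printed above for replicates 1 and 2, which is 622 bp from AT3G24480, and one at chr3:8714951-8715126 for replicate 3. The latter is 176 bp long and shares 9 bp of noncoding exon with *FMA* (AT3G24140, minus strand), at the 3′ end of this gene for a regulator of stomatal guard cell fate, and otherwise lies outside it. Neither was in an *ago4* list. In *ago4*, another DMR of all 3 lists lay 421585 bp upstream of *CLSY4* (chr3:9257414-9257691), 2331 bp from *AFH1*. Within 500 kb, 3 DMRs were only in *ago4* lists and 3 only in *nrpe1* lists.

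The nearest DMR of *CLSY2* was 569, 211 and 553 kb away in *ago4* replicates 1, 2 and 3, and 1458, 928 and 2434 kb away in those of *nrpe1*. The groups did not overlap, and the geometric mean was 3.68 times as long in *nrpe1* (1488 kb) as in *ago4* (405 kb), with the same exact permutation p of 0.1, adjusted 0.3. For 27.0% of all genes every *ago4* list was nearer than every *nrpe1* list, and for 1 of these 6. The *ago4* lists are also the longer ones, with 215, 265 and 207 DMRs against 50, 176 and 65, and the part of list length in this order was not tested. The nearest *ago4* DMR, at chr5:7114796-7115147, is 1308 bp from *AO1*, an aldehyde oxidase gene, and was in the list of replicate 2 only. A DMR in all 3 *ago4* lists lay 826 kb downstream (chr5:6072476-6073278).

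For the other 4 genes the distances of the genotypes overlapped. *CLSY1* was 329, 317 and 938 kb from the nearest DMR in *ago4* replicates 1, 2 and 3, and 973, 260 and 317 kb in those of *nrpe1*. The DMR at 317 kb (chr3:15077498-15079596) was nearest in *ago4* replicate 2 and *nrpe1* replicate 3, and was also listed in *nrpe1* replicate 2. All of the nearest DMRs of *CLSY1* lay on its upstream side.

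*SHH1* was 377, 995 and 996 kb from the nearest DMR in *ago4*, and 901, 917 and 917 kb in *nrpe1*. In *nrpe1* replicates 2 and 3 this was the same DMR, which overlapped the pseudogene AT1G17900. *SHH2* was 1836, 1173 and 1514 kb from the nearest DMR in *ago4*, and 2590, 392 and 2402 kb in *nrpe1*. In the *ago4* lists 94.5%, 85.3% and 87.5% of genes had a nearer DMR than *SHH2*. In the *nrpe1* lists it was 60.6%, 50.7% and 75.9%, so *SHH2* was far from listed DMRs mainly in *ago4*. In *nrpe1* replicates 1 and 3 its nearest DMR was the same as that of *CLSY4*, so the values of these genes are not independent.

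*CLSY3* had the widest range. Its nearest DMR was 1562, 717 and 4612 kb away in *ago4* replicates 1, 2 and 3, and 2470 kb, 574 bp and 4534 kb away in those of *nrpe1*. Without replicate 2 the log2 difference, *ago4* minus *nrpe1*, went from 3.22 to -0.32, so its direction rests on that replicate. The exact permutation p was 0.8 for *CLSY1* and *CLSY3* and 1 for *SHH1* and *SHH2*, each 1 after adjustment over the 6 genes.

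**Figure D4:**
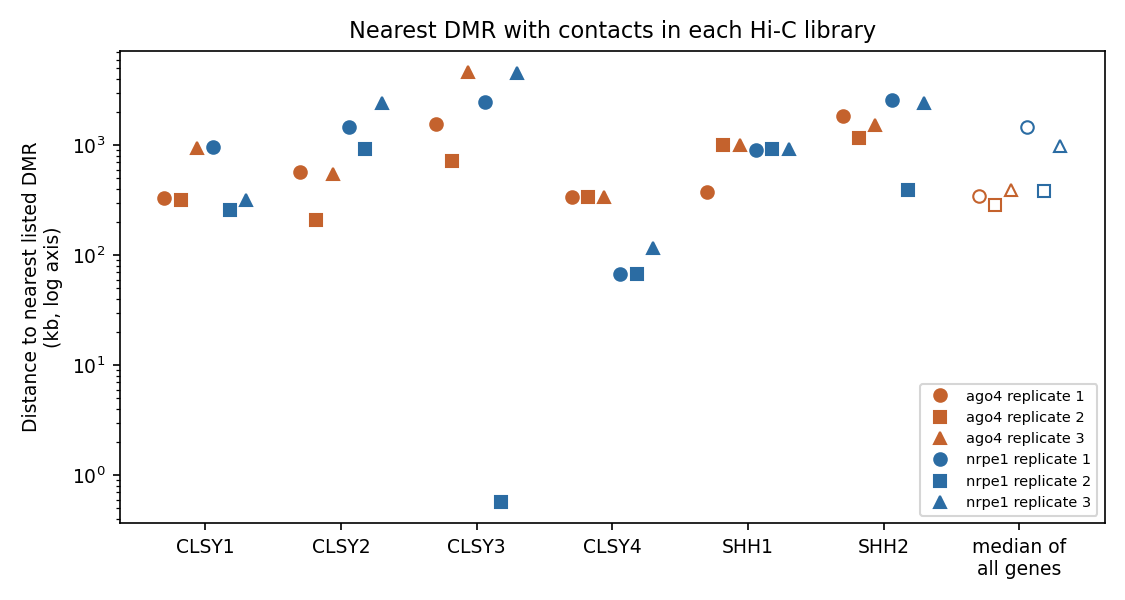
Distance from each gene to the nearest listed DMR (y axis, kb, log axis) in each of the 3 *ago4* (orange) and 3 *nrpe1* (blue) libraries, with the median of 16604 genes in the same libraries as open symbols. The *nrpe1* points of *CLSY4* lie below its *ago4* points at 339.7 kb, and a single *nrpe1* point of *CLSY3* lies at 574 bp.

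Distances also differed between lists for genes in general. Over all 16604 genes the median distance was 348, 286 and 394 kb in *ago4* replicates 1, 2 and 3, and 1474, 383 and 983 kb in those of *nrpe1*. In the *ago4* lists 2, 1 and 1 of the 6 genes were nearer than that median, and in the *nrpe1* lists 4, 3 and 3. The lists hold no contact counts, so the depth behind a listed DMR is unknown.

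The share of a list within 250 kb of any of the 6 genes was compared. In *ago4* it was 0 of 215, 1 of 265 (0.377%, 95% Wilson interval 0.0666% to 2.11%) and 0 of 207 DMRs. The counts of 0 allow shares of up to 1.40% and 1.45% by a limit of 3 counts. By the Wilson interval used for the other lists they allow up to 1.76% and 1.82%. In *nrpe1* it was 1 of 50 (2.00%, interval 0.354% to 10.5%), 2 of 176 (1.14%, 0.312% to 4.05%) and 1 of 65 (1.54%, 0.272% to 8.21%). Intervals and limits cover counting error only. The mean share was 0.126% ± 0.218 in *ago4* and 1.56% ± 0.432 in *nrpe1* (SD, n = 3), a difference of -1.43 percentage points, with *nrpe1* higher in 3 of 3 replicates. The two-sided exact sign-flip permutation test within replicate numbers gave p = 0.25, the smallest that 3 pairs allow. With 3 pairs this test cannot give a smaller p whatever the values, so its p says nothing for or against a difference. The intervals of single libraries overlap between the genotypes. The part of the genome that these windows cover was not computed, so whether either share is high or low was not tested. At this distance 1 of the 6 genes had an *ago4* DMR, against 61.1% of all genes, and 2 had an *nrpe1* DMR, against 42.7%. The size of the shares and their order within pairs depend on the window, while the mean share was lower in *ago4* at each window. At 100 kb *nrpe1* was higher in 2 of 3 pairs. At 500 kb *nrpe1* was higher in 2 pairs and *ago4* in 1, with means of 1.85% in *ago4* and 2.83% in *nrpe1*, and at 1000 kb the means were 4.76% and 5.62%.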

How the data were processed

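The RNA-seq table was made by the authors from rRNA-depleted seedling RNA, which they mapped to TAIR10 with Tophat (TopHat2 in the processing notes) and compared with edgeR, and they deposited a mean log2 CPM per gene. Its fold change and p-value columns hold the authors' own comparison of *ago4* with Col-0 and were not used. Its Col-0 libraries are not among the samples described here. Hi-C reads were mapped by the authors with Bowtie. For single replicates they counted contacts between 250 bp windows, the calling that fits the deposited lists of *nrpe1* DMRs, which are per library. Lists were assigned to samples by genotype and replicate number. Tool versions are not given in the sources used here.

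All 6 genes are named. They and the gene lists beside them were chosen with earlier results of these data known. The 3 genes nearest in level per kb and the nearest DMRs were named by rule. The distances by genotype were tested after the data were seen. Positions, exons and sequences are those of RefSeq TAIR10.1, and 16604 of 16755 identifiers matched its nuclear genes. Protein sequences were not analysed here. Distances run between the nearest ends of gene and DMR. Coding sequences were aligned locally (match 1, mismatch -1, gap opening -5, extension -1). Calculations ran in biopython 1.88, pandas 2.3.3 and scipy 1.17.1, with numpy 2.4.6, under Python 3.11.15, and plots in matplotlib 3.10.9. The distance search was tested on simulated data and recovered 200 of 200 planted DMRs. The paper describes 3 biological replicates for Hi-C and for the *ago4* RNA. Nothing in the labels says whether these were grown separately, so p-values measure the spread between these samples. Other window sizes, lengths, filters and leaving out each replicate in turn were tried.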

Additional observations from a re-analysis of the deposited data

How the results depend on the processing

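The mean share of listed DMRs near the 6 genes was lower in *ago4* than in *nrpe1* under every alternative run, but not in every pair (at 500 kb *ago4* was higher in 1 of 3). At 250 kb only *CLSY3* and *CLSY4* had an *nrpe1* DMR, so this share is not independent of their distances. With the replicate block (pairs of equal number) the difference was -1.43 percentage points. Without the block the value is the same by construction, with an exact permutation p of 0.1, the smallest that 3 against 3 lists allow. Windows of 100, 500 and 1000 kb gave -1.05, -0.98 and -0.86. Leaving out each replicate in turn gave -1.77 to -1.15, and could not reverse the sign because *nrpe1* was higher in all 3 pairs at 250 kb. The number of genes with a DMR within 10 kb was 0 or 1 when each replicate was left out, 0 without replicate 2, and 0 when only upstream DMRs were counted, as both rest on the 1 DMR beside *CLSY3*. Same-numbered libraries of both mutants correlated by 0.04, 0.12 and 0.15 over 121 windows of 1 Mb, and each correlated best with its own number. These values are small, beside -0.13 for *ago4* replicate 3 with *nrpe1* replicate 2. Whether equal numbers mark pairs was not tested. For the log2 distance to the nearest DMR, *ago4* minus *nrpe1*, leaving out replicates gave -0.64 to 0.93 for *CLSY1* and -2.14 to -1.75 for *CLSY2*. It gave -0.32 to 5.16 for *CLSY3*, 1.93 to 2.33 for *CLSY4*, -0.57 to 0.12 for *SHH1* and -0.58 to 0.54 for *SHH2*. Only *CLSY2* and *CLSY4* kept their direction. This was fixed in advance, as the distances of the genotypes did not overlap for these genes, and adds no support. *CLSY3* has no value among genes with a log2 CPM of at least 0. The depth of the RNA libraries and of the contact lists is unknown.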

Other observations

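Among the other RdDM genes, 2 of 27 had a listed DMR within 10 kb, each in 1 list, a share near the 7.46% of all genes and so no result about this pathway. *SUVH6*, an H3K9 methyltransferase gene, was 6682 bp from one, and *DRD1*, a SNF2 gene of the Pol V arm, 8034 bp. *DMS3*, *RDR2* and *AGO4* followed, 11458, 12012 and 12968 bp from the nearest DMR. *NRPD2*, which encodes a subunit of Pol IV and Pol V, was 75297 bp from one, the DMR that was nearest to *CLSY4* in all 3 *ago4* lists.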
